A study of Mus musculus with 3 samples.

Results

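Cells sorted from the subventricular zone of the mouse brain fell, by the authors' own clustering, into groups that included a cluster of quiescent stem or astrocyte-like cells (cluster 3, 30 cells) and a cluster of microglia-like cells (cluster 1, 36 cells). These 66 cells, of the 149 that the authors kept, were taken by their deposited cluster number and are compared here within each sorting plate. Plate 1 held 25 cells of cluster 3 and 9 of cluster 1, plate 2 held 1 and 18, and plate 3 held 4 and 9. All cells came from male Envigo C57BL/6J mice, 8 of them used per experiment, and no treatment or altered allele is named in the labels; the sources used here do not give the age of the mice. They had been bound on a magnetic column through GLAST, a glutamate transporter that Slc1a3 encodes, and read by SORT-seq, a plate method that tags the 3′ end of each transcript with a molecular identifier. The sorter's autofluorescence, the light a cell emits without any dye, was deposited for each cell. The labels call the sorted cells neural stem cells, yet cluster 1 carried the defining genes of microglia.

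Astrocytes and quiescent neural stem cells of this niche are close relatives. Both take up glutamate and potassium from the space between cells, are coupled by gap junctions, and share most of their commonly used marker genes, so that the 5 markers used here do not part one from the other. Microglia are the resident macrophages of the brain: they descend from the yolk sac, depend on the receptor Csf1r, survey tissue through purine and chemokine receptors, and make the complement component C1q. Autofluorescence in the visible range is known to come in part from flavins and from lysosomal deposits.

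The markers parted the clusters in nearly every cell. Leaving aside 4 cells described next, the 5 astrocyte and stem cell markers (Slc1a2, Clu, Slc1a3, Aldoc and Bcan) made up 1.48% to 4.24% of the identifiers of a cluster 3 cell, with a median of 2.95%, and at most 0.572% in cluster 1. The 8 microglial markers, among them C1qa, C1qb, C1qc, Csf1r, P2ry12, Cx3cr1 and Ctss, made up 1.39% to 5.39% in cluster 1, with a median of 4.04%, and at most 0.163% in cluster 3. These shares describe clusters drawn from the same values. Each of the 4 other cells held at least 0.5 times as many identifiers of another cell type's list as of its own markers. One cell of cluster 3 on plate 1 held 65 identifiers of its own markers and 49 microglial ones. Another cell of cluster 3 on plate 1 held 8 and 28 endothelial ones. One cell of cluster 1 on plate 1 held 3 and 47 endothelial ones. One cell of cluster 1 on plate 2 held 42 and 30 oligodendrocyte ones. Doublets were not called. The fit on 4 sums and the measures per cell were also made without these cells; the fit on all clusters, the promoter counts, the shares of cells after thinning and the phase counts were not.

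**Figure D1:**
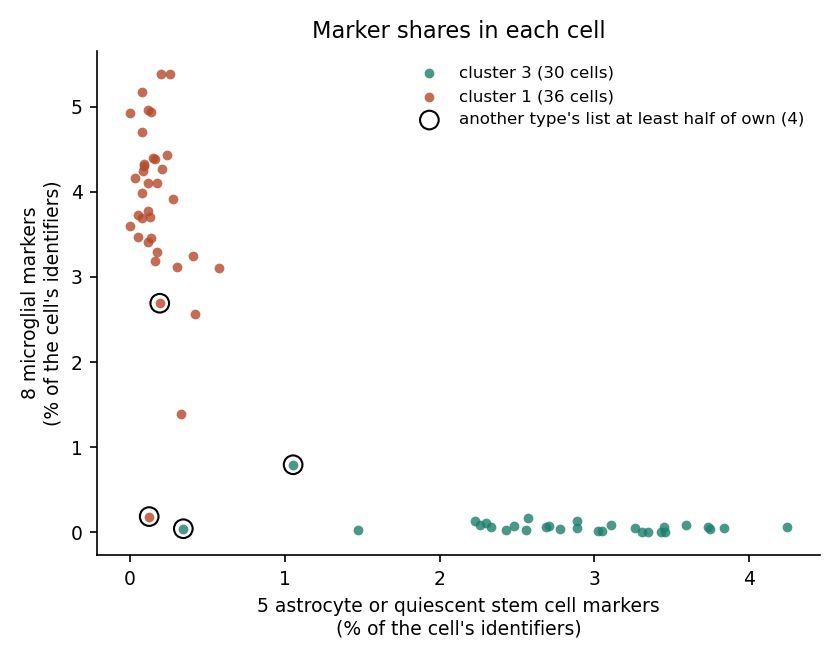
Share of each cell's molecular identifiers taken by the 5 astrocyte or quiescent stem cell markers (horizontal axis, %) and by the 8 microglial markers (vertical axis, %). Each point is a cell, green for cluster 3 and red for cluster 1, and circles mark the 4 cells in which another type's list reached at least 0.5 times the own markers. The other cells lie along one axis or the other.

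Transcripts were summed per plate and cluster, and the 4 sums of plates 1 and 3 were compared, since plate 2 has 1 cell of cluster 3. The sums held 130758 transcripts (plate 1, cluster 3), 29684 (plate 1, cluster 1), 22300 (plate 3, cluster 3) and 23840 (plate 3, cluster 1). Levels below are CPM, transcripts scaled to a common total per sum, and are given in that order of plates. Of 16178 genes, 418 were abundant enough to be tested. A gene could enter through the cluster in which it is high, so the counts below describe how the clusters part and lend no independent weight to it. By edgeR's quasi-likelihood F test, with TMM scaling and an adjusted p under 0.05, 159 genes were called higher in cluster 3 (38.0% of the 418 tested) and 123 higher in cluster 1 (29.4%), 67.5% in all. With RLE size factors in place of TMM the split was 130 to 157 (68.7% in all), because this scaling lowers every log2 difference by a median of 0.57 and lies nearer to the plain ratio of CPM. Both scalings called 130 genes higher in cluster 3 (31.1%) and 123 higher in cluster 1 (29.4%). Fitted log2 differences below are cluster 3 minus cluster 1 with TMM, followed by their SE, over 2 plates. A fit on the sums of all 5 clusters reaches 5329 genes and called 361 higher in cluster 3 (6.77%) and 308 higher in cluster 1 (5.78%), 12.6% in all; it is used for genes too rare for the first fit and is named where it is used.

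Both plates gave nearly the same picture. Of the 282 genes called, 280 had the same sign on plates 1 and 3. Across the 305 tested genes above 0 in all 4 sums, the log2 CPM ratios of the 2 plates had a Pearson correlation of 0.896; this is across genes, which share their libraries, and is a description. The plates differed in sign for 45 of these 305 genes, and 0 of those 45 were called under both scalings.

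**Figure D2:**
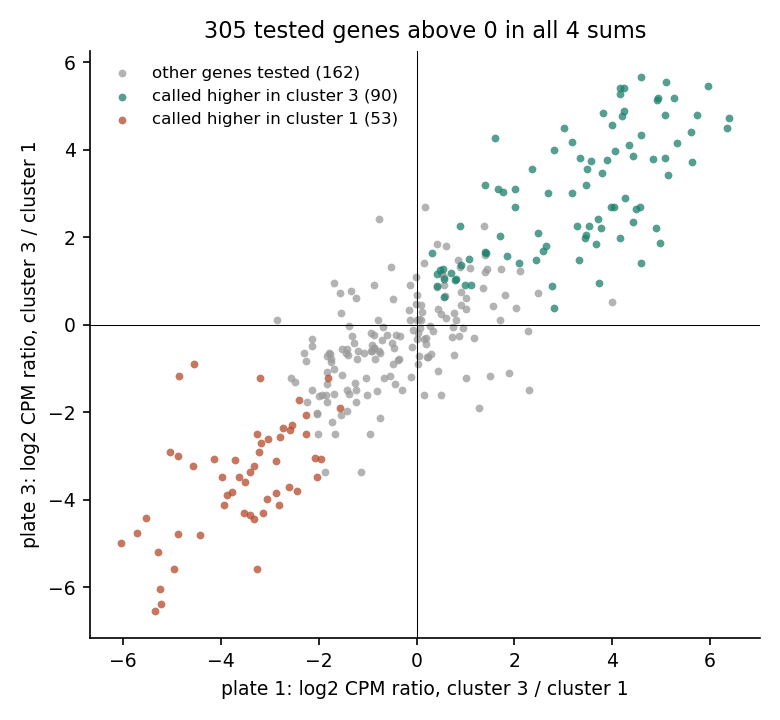
Log2 ratio of CPM, cluster 3 over cluster 1, on plate 1 (horizontal axis) and plate 3 (vertical axis) for the 305 tested genes above 0 in all 4 sums. Points are genes, green or red where both scalings called them higher in cluster 3 (90) or in cluster 1 (53), grey otherwise (162); the coloured genes keep to the quadrants of equal sign.

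Genes for the transport of glutamate and GABA were higher in cluster 3, and the transporters described first are among the markers by which it was named. Slc1a2, the main astrocytic glutamate transporter (GLT-1, chr2:102658659-102790784 in GRCm38), stood at 9368.5 and 10897 CPM in cluster 3 against 438 and 755 in cluster 1, a fitted log2 difference of 4.70 (SE 0.30, adjusted p = 7.8e-41). Slc1a3, which encodes the GLAST protein used for selection, stood at 5575 and 5919 against 337 and 378 (log2 4.59, SE 0.36). Cells of cluster 1 were thus lower than those of cluster 3 in the transcript of the protein by which they had been selected. After every cell was thinned to 1200 identifiers, Slc1a3 was found in 100% of the 30 cells of cluster 3 and in 22.2% of the 36 cells of cluster 1. Without thinning, cluster 1 reached 61.1%.

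Of the 15 genes listed for glutamate and GABA handling, 9 were tested, and 9 were called higher in cluster 3 under both scalings. Over all tested genes, 31.1% were. In the fit on all clusters 12 of 13 were called higher in cluster 3, against 6.77% of all its genes. Slc38a3, which exports glutamine, stood at 466 and 538 CPM against 33.7 and 0, a ratio of 25.5 with a 95% counting interval of 4.44 to 1022. Glul, glutamine synthetase, showed the least difference of the 9 tested members: 2914 and 2735 CPM in cluster 3 against 1381 and 965 in cluster 1 (log2 1.85, SE 0.35, adjusted p = 7.0e-07), so its transcript was well above the limit of detection in the microglia-like cells too. The receptor genes Gabbr1, Gabrb1 and Grm3 were called higher in cluster 3 as well.

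Genes for water, ions and gap junctions followed the same split, with 5 of 11 tested and 5 called higher in cluster 3. Over all tested genes, 38.0% were called higher in cluster 3. Gja1, connexin 43, which couples astrocytes, stood at 2830 and 3318 CPM against 33.7 and 126 (log2 5.88, SE 0.54, adjusted p = 9.9e-23). Aqp4, the water channel of astrocyte endfeet, stood at 1010 and 1480 against 33.7 and 41.9, a ratio of 28.9 with a counting interval of 7.86 to 240. The sodium pump subunit Atp1b2 was called higher too, at 7495 and 4529 CPM against 505 and 336 (log2 4.43, SE 0.35). Among 14 genes of astrocyte membrane and adhesion, 10 were tested and 9 called higher in cluster 3, led by Mlc1 (864 and 1076 CPM against 0 and 41.9) and F3, tissue factor (696 and 897 against 33.7 and 0). Itm2b was tested and not called, at 2378 and 2780 CPM in cluster 3 against 4076 and 4195 in cluster 1.

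Of 18 receptor genes of astrocytes and stem cells, 5 were tested and 4 called higher in cluster 3 under both scalings (31.1% of all tested genes were). The other, Cd9, was not called, at 260 and 269 CPM in cluster 3 against 438 and 419 in cluster 1 (log2 -0.11, SE 0.71, adjusted p = 0.902). Fgfr3, a fibroblast growth factor receptor, stood at 1247 and 942 CPM against 33.7 and 0, a ratio of 64.3 (interval 11.4 to 2555). Ednrb, the endothelin B receptor, stood at 956 and 1659 against 0 and 41.9, a ratio of 56.7 (interval 10.0 to 2251). Sox9, which directs astrocyte and stem cell fate, stood at 1476 and 1211 CPM against 135 and 294 (log2 3.29, SE 0.59, adjusted p = 1.8e-07). Sox2, a factor of stem cell identity, stood at 757 and 493 against 67.4 and 41.9 (log2 4.04, SE 0.97), and Nfib at 421 and 493 against 0 on both plates, at least 7.69-fold higher. Bounds of this kind use a floor of 3 transcripts over the 2 plates of the cluster at 0, which is 19.6 CPM in cluster 3 and 56.05 CPM in cluster 1.

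Of 19 transcription factors listed, 6 were tested and 6 called higher in cluster 3 with TMM (38.0% of all tested genes were). Of these 6, Tcf4 was no longer called with RLE (adjusted p = 0.156). In the fit on all clusters, 11 of 17 were called higher in cluster 3 (6.77% of all its genes were). Among these was Hes5, a target of Notch signalling, with 35 and 6 transcripts against 0 on both plates, at least 4.78-fold higher. Gli3, an effector of Hedgehog signalling, had 25 and 6 against 0 and was at least 3.61-fold higher. Id4 had 76 and 8 transcripts against 1 and 0. Egfr, which rises when stem cells activate, had 68.8 and 0 CPM in cluster 3 and 0 on both plates in cluster 1, and could not be tested in the fit on 4 sums. The list of 7 activated stem cell genes summed to 0.0306% and 0.00448% of the transcripts of cluster 3 (40 and 1 transcripts). In cluster 1 it summed to 0.0135% and 0.00839% (4 and 2 transcripts). On plate 1, the cell of cluster 3 with 49 microglial identifiers held 14 identifiers of this list. All 7 genes were tested in the fit on all clusters, which called 0 of them (12.6% of all its genes were called). Their median log2 difference was 0.026.

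Lipid and matrix genes that were called were mostly higher in cluster 3. Of 14 lipid genes, 7 were tested, with 5 called higher in cluster 3 and 0 higher in cluster 1. Over all tested genes, the shares were 38.0% and 29.4%. Apoe, the main lipid carrier of the brain (chr7:19696109-19699188), stood at 10806 and 10987 CPM in cluster 3 and at 2998 and 3691 in cluster 1 (log2 2.30, SE 0.24, adjusted p = 4.7e-19), so both clusters held it at a high level. Clu, clusterin, stood at 7013 and 6951 against 438 and 294, and Acsl3, which activates fatty acids, at 2065 and 1525 against 67.4 and 41.9. Abca1 and Lrp1 were tested and not called (adjusted p = 0.186 and 0.94). Of 13 matrix genes, 7 were tested, of which 5 were called higher in cluster 3 and 1 higher in cluster 1.

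The exception in the matrix list was Sparc, a secreted glycoprotein, at 612 and 404 CPM in cluster 3 against 6468 and 8180 in cluster 1 (log2 -3.08, SE 0.31, adjusted p = 1.6e-19). Its relative Sparcl1 went the other way, at 6554 and 8834 CPM in cluster 3 against 135 and 419 in cluster 1 (log2 5.43, SE 0.35). The paired members of this family thus differed between the clusters in opposite directions. Bcan, brevican, the brain's own proteoglycan, stood at 2103 and 1839 CPM against 33.7 and 41.9. Cst3, the protease inhibitor cystatin C (chr2:148871722-148875692), was among the most abundant transcripts of both clusters, at 18997 and 21839 CPM in cluster 3 and 34564 and 31628 in cluster 1. It was not called with TMM (log2 -0.12, SE 0.24, adjusted p = 0.674) and was called higher in cluster 1 with RLE (log2 -0.68, adjusted p = 0.0348).

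The largest fitted differences towards cluster 3 belonged to Elovl5, Dkk3, Mt3, Smpdl3a, Luzp2, Plxnb1, Fut9, Nfib, Dlgap1 and Ntsr2. The first 9 of these had no transcript in cluster 1 on plates 1 and 3, and the bounds on their ratios ran from at least 7.11-fold (Dlgap1) to at least 13.5-fold (Dkk3). Pooled over all plates, cluster 1 did hold Elovl5 (23.6 CPM), Mt3 (15.7), Smpdl3a (15.7) and Fut9 (7.86). Their log2 differences were 8.43, 7.99, 7.96 and 7.73 in the fit on 4 sums and 5.15, 5.09, 5.55 and 5.13 in the fit on all clusters. Dkk3 stood at 780 and 628 CPM in cluster 3, and Elovl5, which elongates polyunsaturated fatty acids, at 535 and 1031. Ntsr2, a neurotensin receptor of astrocytes (chr12:16653382-16660227), stood at 2118 and 2601 CPM against 33.7 and 0, a ratio of 117 (interval 20.9 to 4641).

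**Figure D3:**
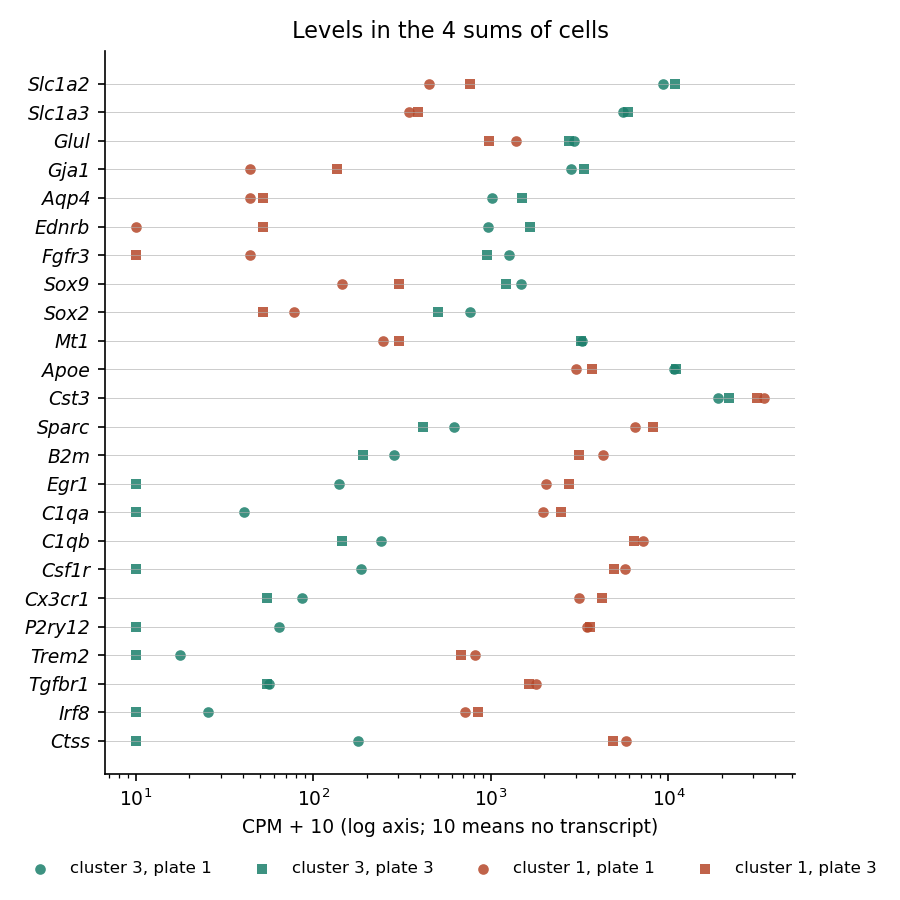
Levels of 24 genes in the 4 sums of cells, as CPM + 10 on a log axis, where 10 means that no transcript was found. Green marks cluster 3, red cluster 1, circles plate 1 and squares plate 3; for each gene drawn, the 2 sums of one cluster lie on the same side of the 2 sums of the other, by the least margin for Cst3 and Glul.

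Cluster 1 was set apart by C1q and by the receptors through which microglia sense and engulf. C1qb, which encodes a chain of C1q (chr4:136880129-136886187), stood at 229 and 135 CPM in cluster 3 against 7142 and 6418 in cluster 1 (log2 -4.45, SE 0.37, adjusted p = 8.2e-27). C1qa stood at 30.6 and 0 against 1954 and 2475, and C1qc at 84.1 and 0 against 4649 and 5453. The C1q genes were therefore not at 0 in cluster 3 on plate 1, where one cell held 49 of the microglial identifiers. After thinning to 1200 identifiers, C1qb was found in 16.7% of the cells of cluster 3 and 100% of those of cluster 1, and before it in 56.7% and 100%. C3ar1, the receptor for complement C3a, had no transcript in cluster 3 and stood at 640 and 587 CPM in cluster 1, at least 31.5-fold higher. Of 11 complement genes, 5 were tested and 5 called higher in cluster 1 (29.4% of all tested genes were).

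All purine and chemokine receptors that could be tested, 6 of 12, were called higher in cluster 1 (29.4% of all tested genes were). P2ry12, the ADP receptor that guides microglial processes, stood at 53.5 and 0 CPM against 3470 and 3607 (log2 -5.66, SE 0.55, adjusted p = 1.2e-20). Cx3cr1, the fractalkine receptor, stood at 76.5 and 44.8 against 3133 and 4195. Gpr34 had 15.3 and 0 CPM against 1348 and 1342, a ratio of 103 (interval 27.5 to 866). Of 26 phagocytic and immune receptors, 12 were tested and 12 were called higher in cluster 1 (29.4% of all tested genes were). Genes without a transcript in cluster 3, such as Siglech and Tyrobp, could be tested only through cluster 1. Siglech, a sialic acid-binding lectin of microglia, had no transcript in cluster 3 and stood at 1786 and 1888 CPM in cluster 1, at least 93.4-fold higher. Tyrobp, the adaptor that signals for Trem2, also had none in cluster 3 and stood at 606 and 587 CPM, at least 30.5-fold higher. Trem2 itself stood at 7.65 and 0 against 808 and 671.

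The other genes with the largest fitted differences towards cluster 1 were Fam105a, Csf3r, C3ar1, Fgd2, Anxa3, Rgs10, Apbb1ip and Il6ra, and each had no transcript in cluster 3 on either plate. Their bounds ran from at least 20.0-fold (Il6ra) to at least 34.3-fold (Fam105a). Il6ra encodes the receptor for interleukin 6 and stood at 404 and 378 CPM in cluster 1, while Il6st, its signalling partner, had 22.9 and 0 CPM in cluster 3 and 33.7 and 41.9 in cluster 1 and was not called in the fit on all clusters (adjusted p = 0.507). Of 27 immune signalling genes, 8 were tested and 8 called higher in cluster 1 (29.4% of all tested genes were). Pld4 (7.65 and 0 CPM against 977 and 629) and Apbb1ip (0 against 472 and 503) led them.

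Microglial transcription factors showed the same direction at lower levels. Irf8, which microglia need to develop, stood at 15.3 and 0 CPM against 707 and 839 (log2 -5.02, SE 0.96, adjusted p = 1.0e-06). Cebpa stood at 7.65 and 0 against 539 and 419, and Sall1 at 22.9 and 44.8 against 404 and 378 (log2 -3.13, SE 0.70). Of 19 factors listed, 4 were tested and 4 called higher in cluster 1, and 9 of 15 in the fit on all clusters. Sfpi1, which encodes PU.1, the factor that directs the macrophage lineage, was too rare for the first fit and stood at 38.2 and 0 CPM against 438 and 294; the fit on all clusters gave log2 -3.69 (SE 1.10, adjusted p = 0.0101).

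Promoters of genes called under both scalings were searched for the core sequence bound by PU.1, GAGGAAGT, on both strands (ACTTCCTC on the other), in RefSeq windows of GRCm38.p6 that run from 250 bases before to 50 after each start. A match was found in 3.28% of all 27025 windows. Of the 123 genes called higher in cluster 1, 88 had a window and 11 of these held a match (12.5%). Of the 130 genes called higher in cluster 3, 85 had a window and 0 held a match. The AP-1 site TGACTCA was found in 4.55% of the windows for cluster 1, 7.06% for cluster 3 and 5.17% of all windows, and the E-box CACGTG in 10.2%, 8.24% and 7.24%. No searched motif contains another. A match is a string of letters and not a shown binding site. Of the 13 markers, 9 had a window and 2 held the PU.1 core, C1qc and Ctss, which encodes the lysosomal protease cathepsin S. Their windows are shown with those of Pld4, a lysosomal exonuclease, and Apbb1ip, an adaptor of integrin signalling, so that genes of several roles can be compared. Fgd2, named above among the largest differences, carries the match too, at position 1, and is not printed. The windows read 5′ to 3′ along the gene with the match in capitals.
C1qc promoter, chr4:136892865-136893164, minus strand: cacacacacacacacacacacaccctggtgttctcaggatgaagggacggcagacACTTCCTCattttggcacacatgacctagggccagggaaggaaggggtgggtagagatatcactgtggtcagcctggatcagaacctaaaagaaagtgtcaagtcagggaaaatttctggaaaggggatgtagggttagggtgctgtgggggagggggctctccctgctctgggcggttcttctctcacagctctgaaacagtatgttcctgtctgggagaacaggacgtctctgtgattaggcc
Ctss promoter, chr3:95526536-95526835, plus strand: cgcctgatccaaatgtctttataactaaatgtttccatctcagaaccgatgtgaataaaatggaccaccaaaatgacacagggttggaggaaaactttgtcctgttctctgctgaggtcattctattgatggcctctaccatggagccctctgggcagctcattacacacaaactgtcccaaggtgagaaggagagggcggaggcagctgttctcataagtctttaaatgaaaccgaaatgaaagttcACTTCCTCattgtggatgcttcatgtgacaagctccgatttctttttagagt
Pld4 promoter, chr12:112760405-112760704, plus strand: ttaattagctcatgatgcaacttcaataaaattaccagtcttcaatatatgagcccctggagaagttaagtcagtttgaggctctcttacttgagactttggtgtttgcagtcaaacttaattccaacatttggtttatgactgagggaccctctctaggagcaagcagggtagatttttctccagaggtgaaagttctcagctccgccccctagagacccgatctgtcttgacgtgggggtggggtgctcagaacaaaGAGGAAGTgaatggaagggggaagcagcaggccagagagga
Apbb1ip promoter, chr2:22774077-22774376, plus strand: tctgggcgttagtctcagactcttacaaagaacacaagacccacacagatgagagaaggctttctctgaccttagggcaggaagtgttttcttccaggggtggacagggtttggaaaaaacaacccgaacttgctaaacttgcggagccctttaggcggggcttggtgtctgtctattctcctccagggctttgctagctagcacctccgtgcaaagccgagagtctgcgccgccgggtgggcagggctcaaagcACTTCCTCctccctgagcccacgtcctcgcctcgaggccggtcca
In C1qc the match began at position -195, counted from 0 at the start site, in Ctss at -2, in Apbb1ip at 5 and in Pld4 at 9, and it lay in the orientation GAGGAAGT in Pld4 and in the other orientation in the other 3.

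Ligands and receptors through which these cell types are known to signal to each other were mostly rare. Csf1r, the receptor for Csf1 and Il34, stood at 176 and 0 CPM in cluster 3 against 5660 and 4950 in cluster 1 (log2 -4.76, SE 0.43, adjusted p = 1.4e-23). Its ligand Csf1 stood at 30.6 and 89.7 CPM in cluster 3 and 33.7 and 0 in cluster 1, and Il34 was not detected in any of the 4 sums. Cx3cl1, the ligand of Cx3cr1, was also at 0 in all 4. Cd47, the ligand of the phagocytosis receptor Sirpa, stood at 344 and 448 against 303 and 126 and was not called in the fit on all clusters (adjusted p = 0.206). Sirpa stood at 298 and 493 CPM against 1145 and 1510; it was not called with TMM (log2 -1.20, SE 0.57, adjusted p = 0.0532) and was called higher in cluster 1 with RLE (adjusted p = 0.0037).

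Of the phagocytic receptors Axl and Mertk, both of which bind Gas6, neither was called in the fit on all clusters (adjusted p = 0.389 and 0.628). Axl stood at 138 and 135 CPM in cluster 3 against 0 and 83.9, and Mertk at 115 and 89.7 against 202 and 294. Gas6 itself stood at 91.8 and 0 against 33.7 and 168 (adjusted p = 0.933). Il33 stood at 38.2 and 0 in cluster 3 with none in cluster 1, and its receptor Il1rl1 was at 0 in all 4 sums. Cd200 stood at 7.65 and 0 against 33.7 and 0, and Cd200r1 at 0 against 67.4 and 41.9.

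In the other direction, microglia are known to send Il1a, Tnf and C1q to astrocytes. Il1a stood at 135 and 168 CPM in cluster 1 against 30.6 and 0 in cluster 3 and was not called (fit on all clusters, adjusted p = 0.452). Tnf stood at 101 and 0 against 22.9 and 0. Il1r1, C3 and Osm were at 0 in all 4 sums, Osmr and Igf1 had 7.65 CPM in cluster 3 on plate 1 and 0 elsewhere, and Tnfrsf1a was not called (adjusted p = 0.796). Pdgfb stood at 168 and 168 CPM in cluster 1 against 15.3 and 44.8 (adjusted p = 0.158), while Pdgfrb stood at 122 and 135 in cluster 3 with none in cluster 1 (adjusted p = 0.134). Igf1r was close to level, at 176 and 179 against 168 and 126.

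Receptors for TGF-beta, which were listed on the astrocyte side, were higher in the microglia-like cells. Tgfbr1 stood at 45.9 and 44.8 CPM in cluster 3 against 1786 and 1636 in cluster 1 (log2 -4.57, SE 0.76, adjusted p = 1.8e-08). Tgfbr2 had no transcript in cluster 3 and stood at 371 and 545 CPM in cluster 1, at least 22.9-fold higher (fit on all clusters, adjusted p = 4.7e-05). The ligand Tgfb1 stood at 22.9 and 0 against 101 and 83.9 CPM, a ratio of 4.77 towards cluster 1 with a counting interval of 0.927 to 30.7, which includes no difference. Of the 8 receptors listed on the astrocyte side, 1 was tested in the first fit and 6 in the fit on all clusters. The latter called 2, both higher in cluster 1 (5.78% of all its genes were).

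Lysosomal genes split within their list. Of 46, 18 were tested, 9 were called higher in cluster 1, 2 higher in cluster 3 and 7 not called. With RLE the counts were 11 higher in cluster 1 and 0 higher in cluster 3. Over all tested genes, 29.4% were called higher in cluster 1 and 38.0% higher in cluster 3 with TMM. With RLE these shares were 37.6% and 31.1%. Ctss stood at 168 and 0 CPM in cluster 3 against 5727 and 4866 in cluster 1 (log2 -4.82, SE 0.43, adjusted p = 8.8e-24), and Man2b1, a mannosidase, at 15.3 and 0 against 674 and 671. Ctsb, cathepsin B, stood at 979 and 852 against 2830 and 1888, which TMM did not call (log2 -0.78, adjusted p = 0.062) and RLE did (adjusted p = 0.00157). Lamp1, a membrane protein of the lysosome, went the other way, at 1086 and 1570 CPM in cluster 3 against 539 and 1216 in cluster 1, called with TMM (log2 1.26, SE 0.44, adjusted p = 0.00718) and not with RLE (adjusted p = 0.176); with plate 2 added its log2 difference was -0.079. Cd63 stood at 535 and 538 against 33.7 and 378 and also lost its call with RLE (adjusted p = 0.0532). Ctsd, cathepsin D, stood at 474 and 179 CPM against 4716 and 3901 (log2 -2.99, SE 0.39).

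Genes of metal and redox handling were called in both directions. Of 24 listed, 10 were tested, with 6 called higher in cluster 3 and 2 higher in cluster 1 with TMM, and 5 and 4 with RLE. Over all tested genes the shares were 38.0% and 29.4% with TMM, and 31.1% and 37.6% with RLE, so calls in both directions are not particular to this list. The metallothioneins Mt1, Mt2 and Mt3, which bind zinc and copper, were called higher in cluster 3: Mt1 stood at 3266 and 3229 CPM against 236 and 294, Mt2 at 1660 and 1659 against 33.7 and 126, and Mt3 at 459 and 673 against 0 on both plates. The peroxiredoxin Prdx6 stood at 1285 and 1525 against 33.7 and 41.9. The 2 called higher in cluster 1 with TMM were Trf and Slc11a1. Trf, the iron carrier transferrin, stood at 15.3 and 44.8 CPM against 808 and 1216, and Slc11a1, a metal transporter of phagosomes, at 7.65 and 0 against 505 and 378. Fth1 and Ftl1, the ferritin subunits, were not called with TMM (log2 -0.75 and -0.77) and were called higher in cluster 1 with RLE (adjusted p = 0.00552 and 0.0181). Trf is also a transcript of oligodendrocytes, whose list of 10 genes took 0.537% of the transcripts of cluster 1 and 0.238% of those of cluster 3 on plate 3, and 0.0674% and 0.0474% on plate 1; the part of those transcripts in the Trf result was not tested.

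Immediate early genes, which respond within minutes to stimulation and to tissue dissociation, were higher in the microglia-like cells. Of 19, 8 were tested and 7 called higher in cluster 1, with Jund joining them under RLE (adjusted p = 0.0127). Over all tested genes, 29.4% were called higher in cluster 1 with TMM and 37.6% with RLE. Egr1 stood at 130 and 0 CPM in cluster 3 against 2021 and 2726 in cluster 1 (log2 -3.91, SE 0.57, adjusted p = 1.7e-10), Junb at 38.2 and 0 against 505 and 1300, Fos at 61.2 and 44.8 against 707 and 881 and Jun at 551 and 404 against 2324 and 3356. The tissue was digested with trypsin before sorting, and its part in these levels was not tested. Of 16 chaperone genes, 3 were tested; edgeR called 0 with TMM and 1 with RLE, Hsp90ab1, higher in cluster 1 (374.7 and 269 CPM against 1011 and 1049, adjusted p = 0.0172). Of those not tested, Hspa1a and Hspa1b had 168 and 303 CPM in cluster 1 on plate 1 and 0 in each of the other 3 sums.

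Mitochondrial transcripts were higher in cluster 3, and the calls among ribosomal protein genes depended on the scaling. All 12 tested of the 13 protein-coding genes of the mitochondrial genome were called higher in cluster 3 with TMM and 11 with RLE. Over all tested genes, the shares were 38.0% and 31.1%. The median log2 difference of the mitochondrial genes was 1.501 with TMM and 0.937 with RLE. mtCo1 stood at 16290 and 23767 CPM against 6165 and 7508 (log2 2.11, SE 0.24, adjusted p = 1.7e-16). This list was chosen after the data were seen. Of 38 nuclear genes of the respiratory chain, 36 were reached by the fit on all clusters, which called 1, Atp5b, higher in cluster 3 (log2 2.17, adjusted p = 0.00837). That fit called 6.77% of all its genes higher in cluster 3. The median log2 difference of the 36 genes in it was 1.079, against 0.032 over all its genes and 1.074 for the mitochondrial genes. Of 77 ribosomal protein genes, 32 were tested. With TMM, 5 were called higher in cluster 1, a smaller share than the 29.4% of all tested genes, and 0 higher in cluster 3. With RLE the counts were 16 and 0, where 37.6% of all tested genes were called higher in cluster 1. Their median log2 difference was -0.931 with TMM and -1.512 with RLE, against 0.206 and -0.363 over all tested genes. In the fit on all clusters, 13 of 70 were called higher in cluster 1 and 0 higher in cluster 3. The shares over all genes of that fit were 5.78% and 6.77%. Rpl12 stood at 61.2 and 89.7 CPM against 505 and 545 (log2 -2.26, SE 0.71, adjusted p = 0.00304), and Rpl4 was level after TMM (log2 -0.01, adjusted p = 0.987).

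Of the cytoskeletal genes, Tmsb4x, thymosin beta 4, stood at 199 and 135 CPM against 5828 and 3733 (log2 -4.21, SE 0.43) and Actb at 780 and 628 against 4716 and 3314 (log2 -1.92, SE 0.36); both were called higher in cluster 1. Actg1 and Cfl1 were not called (adjusted p = 0.83 and 0.922). B2m, the light chain of class I molecules, stood at 275 and 179 CPM against 4245 and 3146 (log2 -3.37, SE 0.43), and H2-K1 was not called (adjusted p = 0.386). Of 21 glycolytic genes, 5 were tested and 3 called higher in cluster 3 with TMM (38.0% of all tested genes were), of which RLE kept 1, Aldoc. In the fit on all clusters, 17 were tested, with 1 called higher in cluster 3 and 2 higher in cluster 1. Over all genes of that fit the shares were 6.77% and 5.78%. Aldoc, a marker, stood at 5024.5 and 3498 CPM against 168 and 755; Gapdh was not called (adjusted p = 0.0696), nor was Pkm (adjusted p = 0.789), and Aldoa and Ldhb, a subunit of lactate dehydrogenase, were called with TMM alone (adjusted p = 0.0415 and 0.0274, and 0.206 and 0.216 with RLE).

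**Figure D4:**
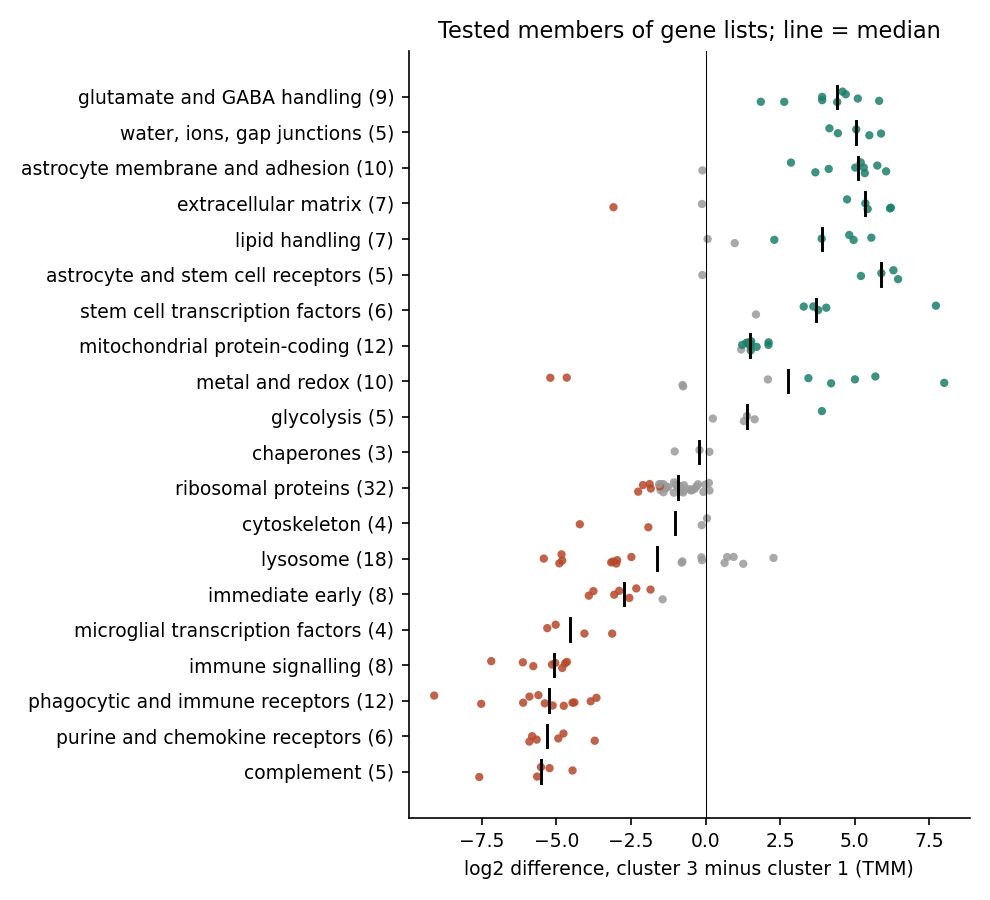
Fitted log2 difference, cluster 3 minus cluster 1 with TMM, for the tested members of 20 gene lists, with their number in brackets. Points are genes, green or red where both scalings called them and grey otherwise, and black lines are medians; the median over all 418 tested genes was 0.21. The lists of astrocyte function lie to the right, those of immune function to the left, and lysosomal, metal and redox genes on both sides.

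Autofluorescence, which took no part in drawing the clusters, was higher in the microglia-like cells on each of the 3 plates. Median values were 1839 in cluster 3 and 4929 in cluster 1 on plate 1, 2900 (1 cell) and 5397 on plate 2, and 1776 and 3950 on plate 3, in the sorter's arbitrary units. The difference of median log10 values was 0.428, 0.270 and 0.347, with a mean of 0.348 ± 0.0793 (SD, n = 3 plates), or 2.23-fold; flipping the signs of the plates (exact permutation test, two-sided) gave p = 0.25, the smallest that 3 plates allow. Among all pairs of cells on a plate, the cell of cluster 1 was the brighter in 86.2%, 83.3% and 97.2%. On no plate did a cell of cluster 3 exceed the median of cluster 1, while 1, 3 and 0 cells of cluster 1 lay below the median of cluster 3. The dimmest of these, at 218 units, was the cell with 47 endothelial identifiers. Without the 4 cells that stood apart the mean difference was 0.340.

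**Figure D5:**
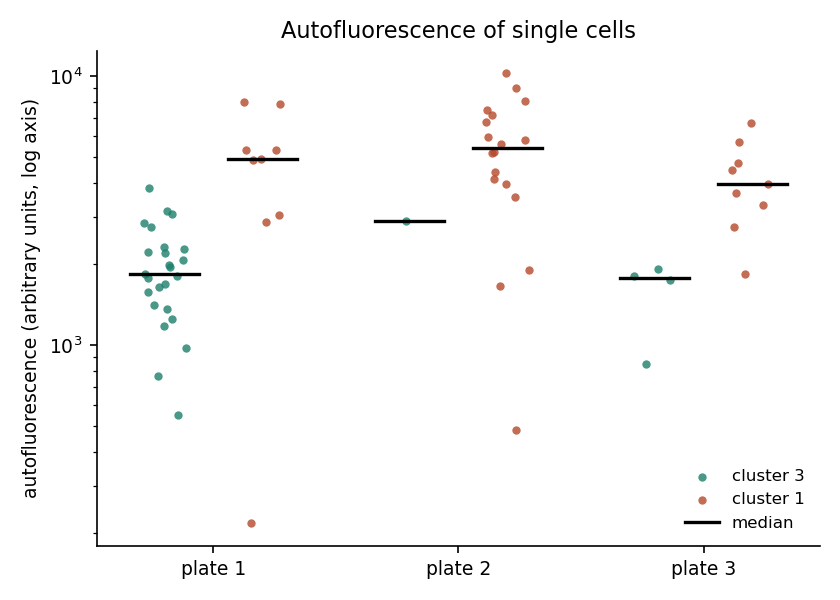
Autofluorescence of single cells (vertical axis, arbitrary units on a log scale) by plate, with cluster 3 in green and cluster 1 in red; black lines are medians. Cluster 1 has the higher median on each plate, and its lowest cell lies below the highest cell of cluster 3 on each plate.

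Transcripts per cell differed in the direction opposite to autofluorescence. Cells of cluster 3 had medians of 4114, 4065 and 5458 transcripts on plates 1 to 3 and cells of cluster 1 had 3497, 3673 and 2469, a mean log2 difference of 0.51 ± 0.549 (SD, n = 3 plates; exact two-sided sign-flip permutation p = 0.25), towards the dimmer cluster. For each cluster, the median of its cells on a plate was first subtracted from the log values of both measures. The Spearman correlation of autofluorescence with transcripts was then 0.457 over the 30 cells of cluster 3. Over the 36 cells of cluster 1 it was -0.068. Both are given as a description, since cells share plates and libraries. The number of genes per cell differed by 293, 40 and 847.5 towards cluster 3, with a mean of 393.5 ± 413 (SD, n = 3 plates; exact sign-flip permutation p = 0.25). After thinning every cell to 1200 identifiers, the difference turned to -24, -71.5 and -70.5, so that at equal depth the cells of cluster 1 held more genes (mean -55.3 ± 27.1, SD, n = 3 plates; exact sign-flip permutation p = 0.25).

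By the authors' deposited phase calls, 27 of the 30 cells of cluster 3 were in G0, 2 in G1 and 1 in G2M, while in cluster 1 G0 was called for 16 cells, G1 for 17, S phase for 2 and G2M for 1. The genes behind these calls were not stated. Their clusters were drawn from the same transcripts, so that the phases are given as counts and not tested.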

How the data were processed

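The authors deposited estimated counts of transcripts per gene and cell, made from molecular identifiers with a correction for collisions. Inverting that correction over a space of 4096 identifiers gave whole numbers for 100% of 349688 values above 0 (tolerance 1e-06). Tools listed in the submitters' processing notes, without roles, are Seurat 4.1.1, R 4.2.0 and BWA 0.7.15, beside builds mm10 and hg19. The authors also deposited cluster numbers, phase calls, genes per cell, and autofluorescence as an intensity in arbitrary units. The authors' deposited percent of mitochondrial transcripts and their G0 score were read and enter no result.

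Estimated counts were rounded after summing per plate and cluster. A plate was read from the last digit of the library name, and sums, not cells, are the replicates; a plate is taken to be an experiment. edgeR 4.0.16 in R 4.3.3 was run with its filter on low counts, TMM, plate as a block, a quasi-likelihood F test and Benjamini-Hochberg adjustment at 0.05, leaving 1 residual degree of freedom (4 in the fit on 11 sums of all clusters, each of at least 3 cells). The script was tested on simulated data. DESeq2 1.42.0 and other settings were alternatives. Counting intervals are exact 95% binomial ones and, like the floor of 3 transcripts, cover counting error only. Gene positions are from GENCODE M21, and promoters from RefSeq.

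Named were the 13 markers, the 10 largest differences each way with equal sign on both plates, up to 2 called each way and 2 uncalled per list, and all members of the 4 ligand and receptor lists; a few other list members were chosen after their values were seen. Some genes that this rule names are not reported here. The members and lists were chosen with earlier results of these data known.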

Additional observations from a re-analysis of the deposited data

How the results depend on the processing

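The differences in autofluorescence, transcripts per cell and genes per cell kept their direction under each alternative run; without plate 1, 2 or 3 they ranged from 0.308 to 0.388, 0.191 to 0.687 and 166.5 to 570.2, and the thinned difference of genes from -71 to -47.25. No p could pass a threshold with 2 or 3 plates, so this says nothing of the p. The 282 calls (159 and 123) became 84 (37 and 47) with a minimum count of 30, for which 116 genes were left, and 669 (361 and 308) in the fit on all clusters, which tested 5329. DESeq2 called 92 genes higher in cluster 3, and adding plate 2 gave 84 higher in cluster 3 and 194 higher in cluster 1; the cause was not tested. Without the plate as a replicate block, 299 genes were called; cells of a plate are taken to share an experiment. In the fit on all clusters, leaving out a plate gave 270 to 349 calls, 135 to 204 of them higher in cluster 3 and 102 to 145 higher in cluster 1, against 669; without plate 1 there were 276, without plate 2 there were 349 and without plate 3 there were 270. Leaving out the 4 cells that stood apart, chosen after seeing the data, gave 277 calls (153 and 124). Among named genes, 1051 of the values under alternatives kept direction and call, 46 gained a call, 61 lost one and 46 changed sign, in the genes named next. Cnp, 0.25 as reported, took -0.30 (RLE), -0.29 (DESeq2), -0.063 (no replicate block), -0.20 (all-cluster sums), -0.997 (plate 2 added), -0.70 (thinned sums), -0.31 (equal cells), -0.29 (all-cluster sums without plate 1) and -0.128 (all-cluster sums without plate 2). Abca1, 0.98 as reported, took -0.62 (plate 2 added), -0.27 (all-cluster sums without plate 1). Lrp1, 0.068 as reported, took -0.50 (RLE), -0.65 (DESeq2), -0.16 (no filter), -0.53 (all-cluster sums), -1.54 (plate 2 added), -0.32 (thinned sums), -1.73 (all-cluster sums without plate 1) and -0.29 (all-cluster sums without plate 2). Itm2b, -0.104 as reported, took 0.011 (equal cells). Lamp1, 1.26 as reported, took -0.079 (plate 2 added). Gapdh, 1.28 as reported, took -0.016 (plate 2 added). Pkm, 0.24 as reported, took -0.32 (RLE), -0.48 (DESeq2), -0.075 (all-cluster sums), -1.26 (plate 2 added), -1.74 (all-cluster sums without plate 1). Cfl1, 0.049 as reported, took -0.52 (RLE), -0.53 (DESeq2), -0.16 (no filter), -1.19 (a minimum count of 30), -0.21 (all-cluster sums), -1.05 (plate 2 added), -0.44 (thinned sums), -0.019 (cells standing apart left out), -0.57 (all-cluster sums without plate 1) and -0.21 (all-cluster sums without plate 2). Hspa8, 0.13 as reported, took -0.44 (RLE), -0.44 (DESeq2), -0.047 (no filter), -0.22 (all-cluster sums), -0.92 (plate 2 added), -0.42 (thinned sums), -0.72 (all-cluster sums without plate 1) and -0.079 (all-cluster sums without plate 2). Rpl4, -0.008 as reported, took 0.001 (identifier counts). TMM and RLE differ by 0.57 on the log2 scale, so a smaller difference can change sign with the scaling: 33 of the 418 genes changed sign between them, 0 of them called under either. With 1 residual degree of freedom and 22300 to 130758 transcripts per sum, genes of a few transcripts could not be tested.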

Other observations

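Cst3 and Apoe were abundant in both clusters and lower in each of the remaining clusters. Pooled over all plates, Cst3 stood at 37587 CPM in cluster 1 and 19479 CPM in cluster 3, against 581 CPM in cluster 0, 535 CPM in cluster 2 and 1953 CPM in cluster 4. Apoe stood at 10755 CPM in cluster 3 and 2143 CPM in cluster 1, against 820, 830 and 856 CPM in clusters 0, 2 and 4. Sparc, by contrast, stood at 6837 CPM in cluster 1, 567 CPM in cluster 3 and 179, 157 and 59.5 CPM in clusters 0, 2 and 4. These pooled levels carry no replicate error and were chosen after their values were seen.

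Of the genes in 10 lists of other cell types' markers, 2 were tested in the fit on 4 sums and edgeR called neither. The fit on all clusters called 3 of 10 oligodendrocyte genes higher in cluster 1 (5.78% of all its genes were). One of the 2 tested on 4 sums and not called was the myelin gene Cnp (222 and 673 CPM in cluster 3 against 236 and 965 CPM in cluster 1, adjusted p = 0.78). Cnp was higher on plate 3 than on plate 1 in both clusters. Of 7 markers listed for each, 6 of border macrophages, 4 of blood leukocytes and 7 of neurons were among the 16178 genes. These were at 0 in all 4 sums, and the other listed markers could not be looked up. The lists of fatty acid oxidation (22 genes) and of flavin and NADPH enzymes (17 genes) had 0 members abundant enough for the fit on 4 sums. The fit on all clusters tested 13 and 11 of them and called 0 and 1, where 12.6% of all its genes were called. The gene called was Ncf1, a subunit of the phagocyte oxidase (7.65 and 0 CPM in cluster 3 against 741 and 294 CPM in cluster 1).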
